A study of Xenopus tropicalis with 11 samples.

Results

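The binding sites of Goosecoid (Gsc) were set against those of Lim1, also called Lhx1, on the 10 assembled chromosomes, with 17683 Gsc and 81843 Lim1 peaks. These were all distinct intervals of the 2 lists on a sequence named as a chromosome, 99526 of the 863687 peaks in the 7 lists of the series. Both proteins are homeodomain transcription factors of the Spemann-Mangold organizer, the signalling centre above the dorsal lip of the frog gastrula. Gsc is a repressor that carries a Groucho-binding motif and recruits corepressors of the Groucho/TLE family. Lim1 is a LIM-homeodomain activator of head organizer genes that works with the adaptor Ldb1 and, in Xenopus, activates the gsc gene itself. A site bound by both factors can therefore receive an activating and a repressing input. Binding was mapped by chromatin immunoprecipitation and sequencing (ChIP-seq) in whole Xenopus tropicalis embryos (strain Nigerian A) fixed at stage 10.5, an early gastrula stage, with pools of 2000 to 3000 embryos per chromatin sample. The series has 11 libraries, 1 for each of 7 antibodies and 4 inputs. The Gsc library has an input of its own, and Lim1 shares its input with Otx2. The question was where on the chromosomes the Gsc summits lie relative to the Lim1 peaks, and how the peaks that coincide differ from those that do not.

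The full lists held 26330 Gsc and 102427 Lim1 peaks, the rest lying on unplaced sequences and the mitochondrial genome. A Gsc interval with several summits was represented by the summit of highest fold enrichment, and 1149 Gsc intervals had more than 1. The Gsc list is in the narrow layout of the peak caller MACS2 and has summits, while the Lim1 list is in the broad layout and has none, so the midpoint of the interval was used for Lim1. Fold enrichment and −log10 q are the authors' own values, and they were used to describe and rank peaks within a list. The levels of fold and width were not compared between the lists. The containment and coverage of overlapping pairs given below depend on the widths of both peaks, and so on the narrow and the broad layout. With 1 library per antibody there is no replicate error, no test was made, and the 95% intervals express counting error alone. The lists do not give the read depth. Chromatin of all cells of the embryo was mixed, so coinciding peaks may stem from different cells.

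Gsc peaks were few and narrow. Their median width was 76 bp, and 25.03% (4426 peaks) had the smallest width in the list, 56 bp. The median fold was 4.88. Lim1 peaks had a median width of 90 bp, and 24.2% (19821 peaks) had the smallest width, 46 bp. Lim1 peaks occupied 0.799% of the 1272.5 Mb spanned by the lists on the chromosomes and Gsc peaks 0.138%, at mean densities of 64.3 and 13.9 peaks per Mb. Both lists thus held many peaks at the smallest size that was called.

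A large part of the Gsc peaks lay on Lim1 peaks. Of the 17683 Gsc peaks, 7713 shared at least 1 bp with a Lim1 peak, which is 43.6% (95% interval 42.9 to 44.4). These are called shared Gsc peaks below. From the other side, 6366 of the 81843 Lim1 peaks met a Gsc peak, which is 7.78% (7.60 to 7.96). The 2 lists do not end at the same q. The lowest −log10 q was 1.30353 for Gsc and 1.00456 for Lim1, and the medians were 3.61 and 1.64. Most shared Lim1 peaks held a single Gsc peak, since 84.7% held 1, 11.4% held 2 and 1.26% (80 peaks) held 4 or more. Of the 7722 overlapping pairs, 5390 lay in Lim1 peaks with 1 Gsc peak and the rest in Lim1 peaks with several. A Gsc peak that bridged 2 Lim1 peaks was rare, at 9 of 7713. Lim1 peaks with 2 or more Gsc peaks had a median width of 502.5 bp, against 171 bp for those with 1. The Gsc share depended on where either list was cut. It was 24.7% with the Lim1 list shortened by fold to 17683 peaks, whose median width was 63 bp against 90 bp in the full list. The part of this width difference in the lower share was not tested. The Gsc share was 26.7% with both lists at a −log10 q of at least 3. It was 77.7% for the 1647 Gsc peaks whose −log10 q reached 10, against the full Lim1 list. The Lim1 share in these 3 settings was 19.3, 30.6 and 1.45%. With both lists at a −log10 q of at least 3, the Lim1 share was thus no longer below the Gsc share. That cut left 11127 Gsc and 7314 Lim1 peaks, so the Lim1 list was then the shorter one. The part of list length in this change was not tested.

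In most overlapping pairs, the Gsc peak lay largely inside the Lim1 peak. There were 7722 pairs. The Gsc peak was wholly within the Lim1 peak in 46.3% of them, the Lim1 peak was wholly within the Gsc peak in 9.52%, and the ends were staggered in 44.2%. The median overlap was 75 bp, which covered a median of 97.4% of the Gsc peak and 36.4% of the Lim1 peak. Overlaps of a few bases were therefore uncommon, with 26 bp at the 5th percentile. The Gsc summit itself fell inside the Lim1 peak in 88.2% of pairs (87.4 to 88.9).

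The Gsc summit lay a median of 62 bp (95% interval 59.5 to 64.5) from the Lim1 midpoint. It was within 25 bp in 25.02% of pairs, within 100 bp in 67.7% and within 250 bp in 91.5%. Both sides of the midpoint were nearly balanced, with a median signed offset of −1.5 bp (−4 to 0) and 51.2% of summits at the lower coordinate (50.03 to 52.3). The lists carry no strand, so an offset tied to the direction of a gene or motif would not show in these values.

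How central the Gsc summit was depended on the width of the Lim1 peak. In the 1436 pairs with a Lim1 peak of 46 to 99 bp, the distribution had a single maximum at the midpoint. There the median distance was 14.5 bp, and 56.1% (53.1 to 59.2) of the summits inside the peak lay in the central part, taken as the middle one of 3 equal parts. In the 935 pairs with Lim1 peaks of 100 to 149 bp the midpoint was no longer the maximum, with 305 summits less than 25 bp away and 357 at 25 to 50 bp, and the central part held 32.8% (29.5 to 36.3). In Lim1 peaks of 150 to 199 bp the distribution had a maximum on either side of the midpoint. Of these 874 pairs, 179 had the summit less than 25 bp from the midpoint, 223 at 25 to 50 bp, 264 at 50 to 75 bp and 133 at 75 to 100 bp, and the central part held 27.9% (24.7 to 31.2). In Lim1 peaks of 200 to 249 bp the maxima had moved outward, with 144 of 712 summits less than 25 bp from the midpoint, 119 at 25 to 50 bp, 153 at 50 to 75 bp and 200 at 75 to 100 bp. The median distance from the nearer edge was 38.5 bp at Lim1 widths of 150 to 199 bp and 48.5 bp at 200 to 249 bp. In peaks of 400 to 799 bp the summits were spread almost evenly, with 30.8% in the central part, and the median distance from the midpoint was 151.5 bp. Over all widths, 34.7% (33.6 to 35.8) of inside summits lay in the central part, close to what an even spread over 3 equal parts would give.

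**Figure D1:**
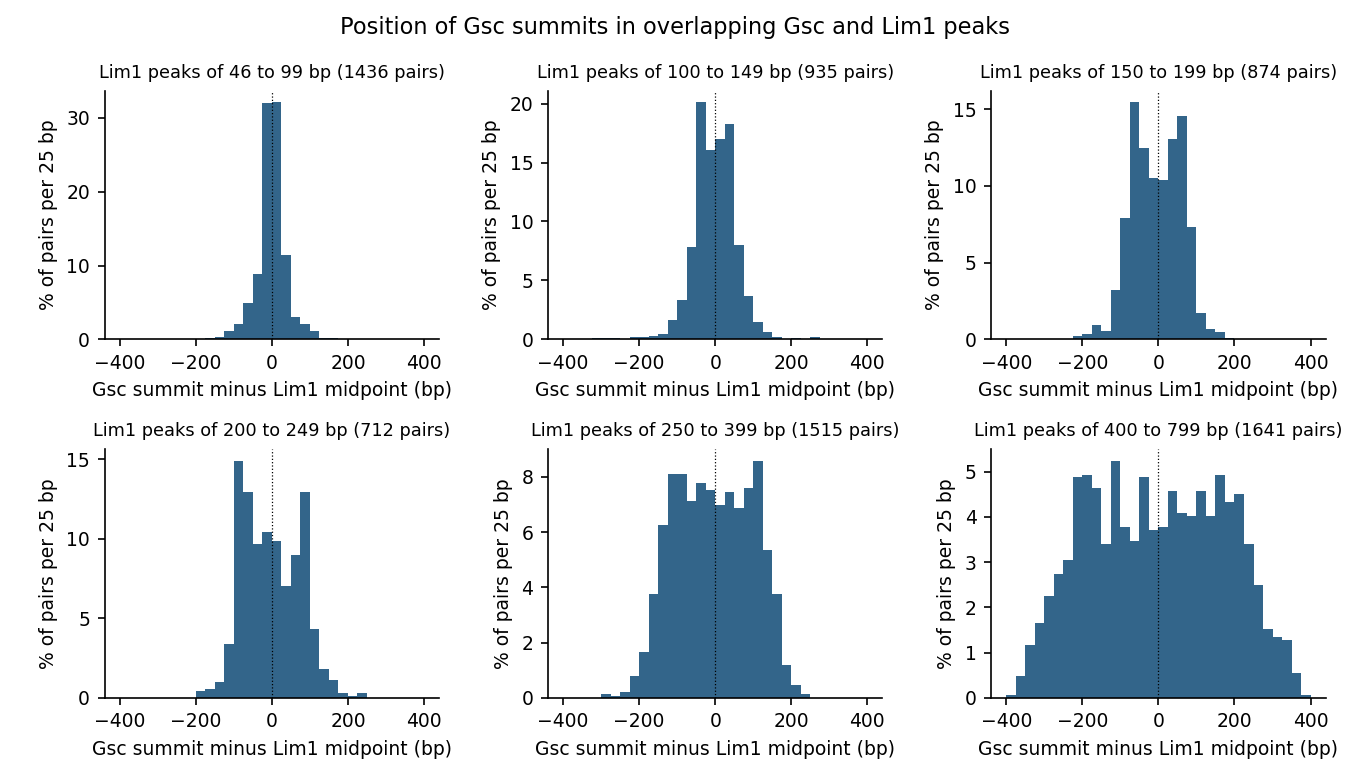
Offset of the Gsc summit from the Lim1 midpoint in overlapping pairs (x axis, bp) against the percent of pairs in each bin of 25 bp (y axis), for 6 classes of Lim1 width. A single central maximum in Lim1 peaks of 46 to 99 bp gives way to a maximum on either side, shallow at 100 to 149 bp and clearer at 150 to 249 bp, and to a broad plateau at 400 to 799 bp.

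Successive Gsc summits were most often 75 to 150 bp apart. Among 4358 successive Gsc summits less than 1 kb apart, every deposited summit counted, 553 were 75 to 100 bp apart, 540 fell in the next 25 bp and 510 in the 25 bp after that, with 233 at 200 to 225 bp and 41 at 475 to 500 bp. Of the shared Gsc peaks, 13.0% (12.2 to 13.7) held more than 1 summit, and of the unshared ones 1.50% (1.27 to 1.76). The smallest Gsc peak width was 56 bp, and 3 successive summits were less than 50 bp apart. The part of this smallest width in the spacing and in the paired maxima was not tested, and the fragment length used in peak calling is not given in the sources used here.

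Around a Gsc summit, Lim1 midpoints were densest at the summit and thinned out over 2 kb. Counted over all 17683 summits, the density of Lim1 midpoints was 2.16 per kb at less than 25 bp, 33.6 times the mean density on the chromosomes. It was 17.8 times the mean at 50 to 100 bp, 5.65 times at 200 to 300 bp and 1.99 times at 1 to 2 kb. From 2 to 5 kb it was 1.34 times the mean and from 5 to 10 kb 1.50 times, and it still stood at 1.22 times from 50 to 100 kb and 1.14 times from 100 to 200 kb. A narrow excess thus sat on a wide and shallow one.

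Gsc peaks that met no Lim1 peak lay nearer to Lim1 than the span of the chromosomes as a whole, with the largest ratio at short range. For the 9970 unshared Gsc peaks, the median distance from the summit to the nearest Lim1 peak was 4043 bp (3892 to 4215). Of these summits, 11.4% lay within 250 bp of a Lim1 peak, 23.7% (22.9 to 24.6) within 1 kb and 75.1% within 10 kb. Of the chromosome span outside Lim1 peaks, assembly gaps included, 3.12% lay within 250 bp of a Lim1 peak, 11.4% within 1 kb and 65.7% within 10 kb. As a ratio to the span, the share of these summits was therefore highest at 250 bp and lowest at 10 kb, where it was still above the span. Under other list lengths, which also change the set of unshared Gsc peaks, the share within 1 kb was 6.10% with both lists at a −log10 q of at least 3 and 8.61% with the shortened Lim1 list. A total of 2481 Gsc peaks, 14.0% of the list, had no Lim1 peak within 10 kb of the summit. The reverse distance was longer, with a median of 28196 bp from an unshared Lim1 midpoint to the nearest Gsc summit, and 56786 Lim1 peaks (69.4%) had no Gsc summit within 10 kb, beside 80.4% of the chromosome span.

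**Figure D2:**
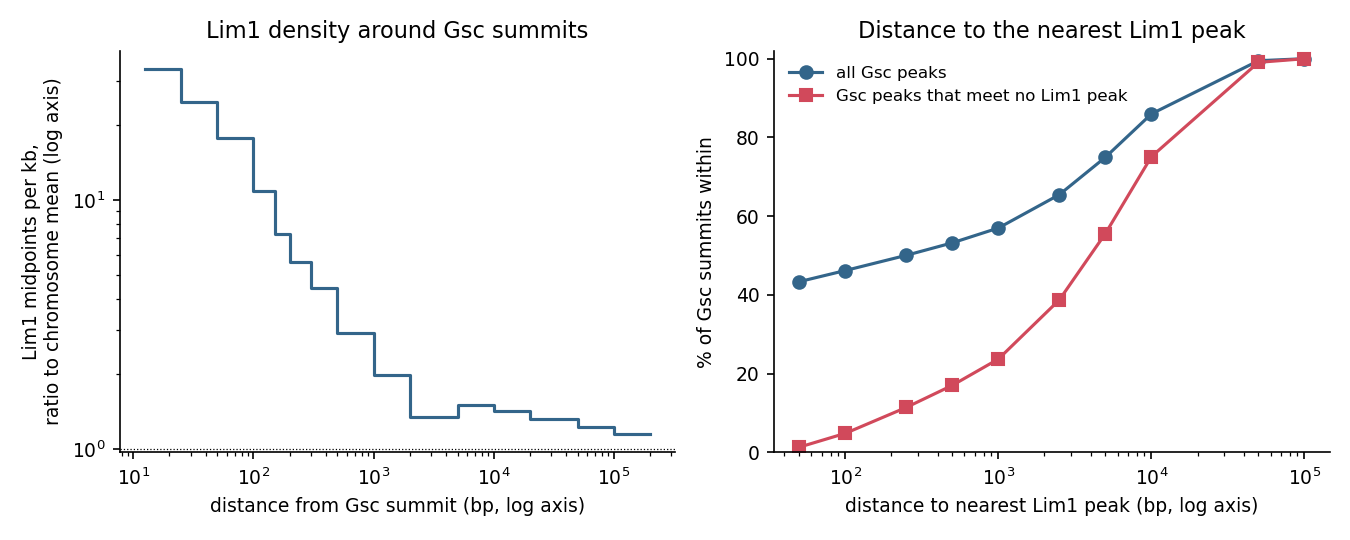
Left, density of Lim1 midpoints around Gsc summits as a ratio to the mean density on the chromosomes (log y axis) against distance (log x axis, bp), which falls from 33.6 below 25 bp to 1.34 at 2 to 5 kb. Right, cumulative percent of Gsc summits against the distance to the nearest Lim1 peak (log x axis, bp) for all 17683 Gsc peaks and for the 9970 that meet no Lim1 peak, of which 75.1% lie within 10 kb.

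Shared peaks were wider than unshared ones in both lists. The median width was 94 bp (92 to 95) for shared and 66 bp (66 to 67) for unshared Gsc peaks, and 199 bp (193 to 204) for shared and 84 bp (83 to 85) for unshared Lim1 peaks. The upper quartile was 145 bp against 92 bp for Gsc and 347 bp against 147 bp for Lim1. Wider intervals meet others more often by construction, and the part of this in the difference was not tested. Shared peaks also had higher folds, with medians of 5.23 against 4.68 for Gsc and 4.03 against 3.44 for Lim1. The medians of −log10 q were 4.54 against 3.16 for Gsc and 2.52 against 1.60 for Lim1.

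In quartiles of each list by width, sharing went from 23.3% (22.1 to 24.6) of Gsc peaks at the smallest width of 56 bp to 67.5% (66.1 to 68.9) of those of 112 bp and more. By fold it went from 34.0% in the lowest to 63.2% in the highest quartile. The second and the third stood at 36.2 and 41.2%, so the largest step was the last. For Lim1 the share went from 1.55% at 46 to 47 bp to 19.2% at 157 bp and more, and from 3.01% in the lowest to 18.0% in the highest quartile of fold. Within the widest quartile of Lim1 peaks the share was again higher at higher fold, from 6.43% (5.77 to 7.13) to 45.9% (44.5 to 47.2). Within the widest quartile of Gsc peaks it was 67.7% (62.8 to 72.3) at the lowest fold, 58.8% and 60.4% in between and 73.6% (71.7 to 75.4) at the highest. In the widest Lim1 quartile, sharing was thus graded by fold, though widths there still ranged from 157 to 3294 bp. For wide Gsc peaks the order by fold was not steady.

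**Figure D3:**
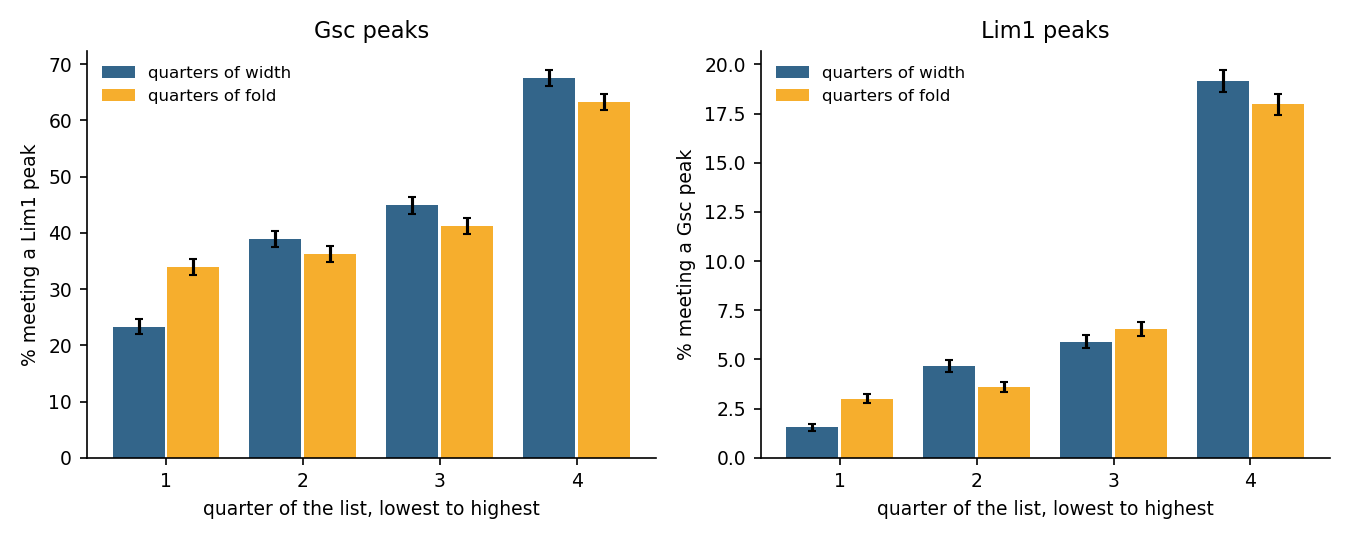
Percent of Gsc peaks that meet a Lim1 peak (left) and of Lim1 peaks that meet a Gsc peak (right), by quartile of width and of fold enrichment within each list, from lowest to highest. Bars start at 0 and error bars are exact 95% intervals; the share reaches 67.5% in the widest Gsc quartile and 19.2% in the widest Lim1 quartile.

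Among the strongest peaks, most Gsc peaks were shared. Of the 100 Gsc peaks of highest fold, 92 met a Lim1 peak, and of the first 1000 76.7% (74.0 to 79.3) did. For Lim1 the corresponding values were 63 of 100 and 460 of 1000 (42.9 to 49.1%). Across shared Lim1 peaks, the rank correlation between Lim1 fold and the highest Gsc fold was 0.120 in the quartile of narrowest peaks (n = 320), 0.387 and 0.308 in the middle quartiles (n = 949 and n = 1209) and 0.497 in the quartile of widest peaks (n = 3888). These points are sites in the same 2 libraries that share local coverage, and the values are a description.

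The strongest pairs were chosen by the lower of the Gsc and Lim1 fold percentiles. The 8 highest had Gsc widths of 103 to 253 bp, all above the list median of 76 bp, and Lim1 widths of 77 to 269 bp, where the list median was 90 bp. Their Gsc summits lay at most 59 bp from the Lim1 midpoint. The first lay on chromosome 3 at 131794160 to 131794372 for Gsc and 131794168 to 131794365 for Lim1, with the highest fold of either list on the chromosomes, 32.5 and 19.4. There the Gsc summit was at 131794242, 24.5 bp below the Lim1 midpoint. The second pair lay on chromosome 9, with Gsc at 80295853 to 80296022 and Lim1 at 80295864 to 80296009, folds of 32.1 and 16.6, and an offset of −13.5 bp. In the sixth, on chromosome 10 at 14712173 to 14712275 (Gsc) and 14712184 to 14712260 (Lim1), the summit and midpoint coincided (offset 0.0 bp), with folds of 25.1 and 13.5. The other 5 lay on chromosome 7 at 89101877 to 89101997 and 116116859 to 116116995, on chromosome 9 at 77787750 to 77788002, on chromosome 1 at 151867660 to 151867800 and on chromosome 2 at 44701453 to 44701583, as the Gsc intervals. Each of the 8 Gsc peaks met Otx2, TLE, p300 and H3K4me1 peaks, and 6 met an H3K27ac peak. Over all Gsc peaks the shares were 74.2% for Otx2, 63.4% for TLE, 64.1% for p300, 36.8% for H3K4me1 and 28.9% for H3K27ac. Among the 1662 shared Gsc peaks in the highest quartile of both width and fold they were already 99.2, 87.2, 97.5, 71.2 and 59.9% in the same order. At the 8 named pairs, the highest TLE fold ranged from 4.02 to 40.6 and the p300 fold from 9.70 to 34.4, against list medians of 6.02 and 4.68. The lists lie on a genome build that is not named and differs from the one gene table at hand, so no gene is assigned to any region.

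Strong peaks of either factor with none of the other within 10 kb existed as well. The 3 Gsc peaks of highest fold with no Lim1 peak within 10 kb had folds of 17.2, 15.7 and 14.2 and lay on chromosome 8 at 3298305 to 3298445, chromosome 1 at 111321140 to 111321321 and chromosome 3 at 122998765 to 122998859. All 3 met Otx2 and p300 peaks, 2 met TLE, 1 met H3K4me1 and 0 met H3K27ac. Of all 2481 Gsc peaks with no Lim1 peak within 10 kb, 55.1% met Otx2, 54.7% TLE, 39.2% p300, 11.4% H3K4me1 and 4.96% H3K27ac. The 3 Lim1 peaks of highest fold with no Gsc summit within 10 kb had folds of 15.2, 13.6 and 13.5. They lay on chromosome 6 at 111395206 to 111395351, chromosome 2 at 44467620 to 44467708 and chromosome 3 at 8810787 to 8810859. Of these 3, 3 met Otx2, 1 met TLE, 1 met p300, 2 met H3K4me1 and 0 met H3K27ac, beside 34.0, 23.6, 33.3, 22.9 and 21.8% of all Lim1 peaks. With 3 peaks in each set, these counts are a description of the peaks named.

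Of the other 5 lists of the series, shared and unshared Gsc peaks differed by the most percentage points for the histone mark H3K27ac, which is found at active enhancers and promoters. H3K27ac was met by 28.9% of all Gsc peaks, 53.6% (52.5 to 54.7) of shared ones and 9.77% (9.19 to 10.4) of unshared ones. H3K4me1, a mark of enhancers, was met by 36.8% of all Gsc peaks, 60.2% of shared and 18.7% of unshared ones. The differences were 43.9 points for H3K27ac and 41.4 for H3K4me1. With unplaced scaffolds included their order turned, at 47.5 and 48.5 points. The coactivator and acetyltransferase p300 was met by 64.1% of all, 85.4% (84.6 to 86.2) of shared and 47.6% (46.6 to 48.6) of unshared Gsc peaks. Otx2, the partner activator of Lim1 in the head organizer, was met by 74.2, 87.8 and 63.6% in the same order. The corepressor TLE differed least, with 63.4% of all Gsc peaks, 65.99% (64.9 to 67.1) of shared and 61.4% (60.5 to 62.4) of unshared ones. The TLE and H3K27ac lists cover similar parts of the chromosomes, 2.23 and 2.13%.

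Held to the widest quartile of Gsc peaks, the order turned for TLE, was kept for p300 and the marks, and nearly closed for Otx2. There TLE was met by 80.9% (79.4 to 82.3) of 2980 shared and 91.1% (89.5 to 92.5) of 1432 unshared Gsc peaks. H3K27ac was met by 58.3% (56.5 to 60.1) and 10.3% (8.81 to 12.03), and p300 by 94.6% and 73.6%. Otx2 was met by 96.2 and 92.7%. Among peaks that were also in the highest quartile of fold, TLE was met by 87.2% (85.5 to 88.8) of 1662 shared and 98.0% (96.5 to 98.96) of 597 unshared peaks, while Otx2 was met by 99.2% (98.7 to 99.6) and 98.8% (97.6 to 99.5), with overlapping intervals. In the quartile of Gsc peaks at the smallest width, TLE was met by 44.6% (41.6 to 47.7) of shared and 38.7% (37.1 to 40.4) of unshared peaks, so the order for TLE depended on width. In the second width quartile TLE was met by 55.1% of shared and 62.5% of unshared Gsc peaks, and in the third by 64.4 and 74.9%. The small excess at shared peaks over the whole list was thus absent in 3 of the 4 width quartiles, and p300 and H3K27ac were higher at shared peaks in each of the 4. With the Gsc list at a −log10 q of at least 10 it was also turned, with 91.6% of shared and 95.4% of unshared peaks.

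Seen by coregulator, TLE without p300 was found at 1.96% (1.66 to 2.29) of shared and 18.3% (17.6 to 19.1) of unshared Gsc peaks. p300 without TLE was found at 21.4% (20.5 to 22.3) and 4.49% (4.10 to 4.92). Both coregulators met 64.0 and 43.1%, and neither met 12.6 and 34.1%. In the widest quartile, TLE without p300 stood at 1.24% of shared and 21.2% of unshared Gsc peaks, and p300 without TLE at 15.0 and 3.70%, so the contrast stood in the widest Gsc peaks too. Peaks of all 5 other lists were met by 26.6% of shared and 2.34% of unshared Gsc peaks, and none of the 5 by 2.49 and 27.3%.

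The shares of H3K27ac and p300 were graded along the distance to Lim1, while that of TLE changed little up to 10 kb. H3K27ac was met by 53.6% of overlapping Gsc peaks, 27.4% (24.8 to 30.1) of those whose summit lay less than 250 bp from a Lim1 peak without overlap, 18.8% (16.6 to 21.1) at 250 bp to 1 kb, 6.03% (5.39 to 6.72) at 1 to 10 kb and 4.96% (4.14 to 5.89) beyond 10 kb. TLE was met by 65.99, 65.3, 62.9, 63.5 and 54.7% in the same order. For p300 the values were 85.4, 66.5, 51.7, 46.6 and 39.2%. The median Gsc width was 94 bp with overlap and 67, 67, 68 and 63 bp in the 4 further classes. The distance classes were not split by width, and the part of width in the grading was not tested. TLE without p300 went from 1.96% with overlap to 9.87, 17.9, 20.1 and 18.6%.

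**Figure D4:**
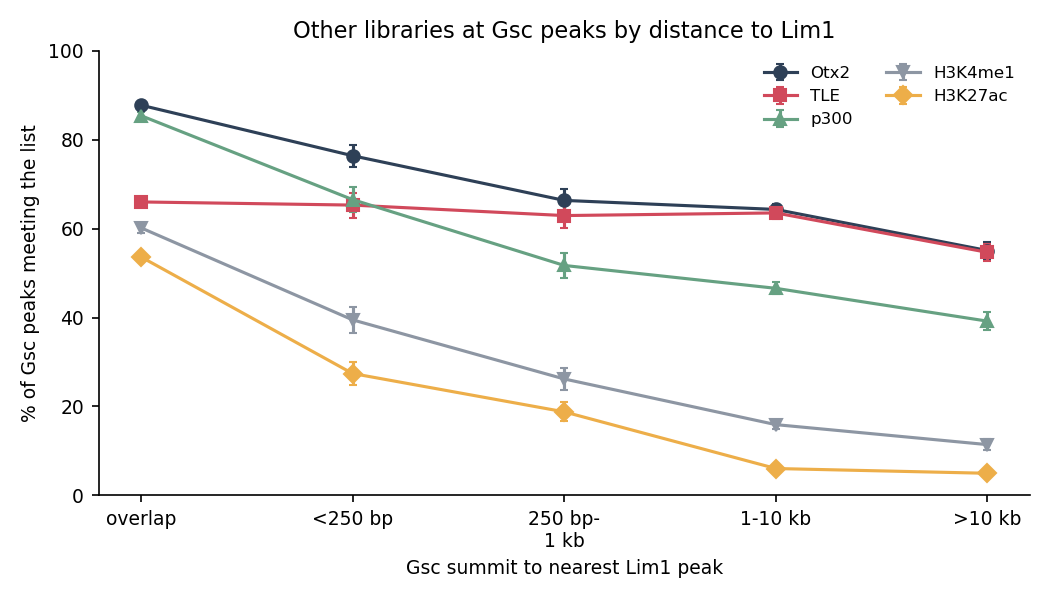
Percent of Gsc peaks (y axis) that meet a peak of Otx2, TLE, p300, H3K4me1 or H3K27ac, by the distance of the Gsc summit from the nearest Lim1 peak (x axis), with exact 95% intervals. H3K27ac falls from 53.6 to 4.96% with distance, whereas TLE stays between 62.9 and 65.99% up to 10 kb and stands at 54.7% beyond.

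Lim1 peaks differed by the presence of Gsc for every list, TLE included. TLE was met by 23.6% of all Lim1 peaks, 69.3% (68.1 to 70.4) of shared and 19.7% (19.4 to 19.99) of unshared ones. p300 was met by 33.3% of all, 87.8% of shared and 28.7% of unshared Lim1 peaks, and Otx2 by 34.0, 88.8 and 29.4%. H3K27ac was met by 21.8, 52.2 and 19.3%, and H3K4me1 by 22.9, 59.96 and 19.8%. None of the 5 lists was met by 2.54% of shared and 53.9% of unshared Lim1 peaks. The Lim1 list reaches a lower −log10 q than the Gsc list, and the part of this in these shares was not tested. In the widest and strongest Lim1 peaks, those in the highest quartile of both measures, the values drew closer. There TLE was met by 72.7% of 2372 shared and 44.2% of 2800 unshared peaks, and H3K27ac by 71.2 and 55.04%.

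Among shared Gsc peaks, 944 met no Otx2 peak. Of these, 9.75% met TLE, 47.6% p300 and 61.3% H3K27ac, against 73.8, 90.7 and 52.5% of the 6769 with Otx2. Their median width was 66 bp against 100 bp.

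Summit positions gave a finer view of the coregulators. At shared Gsc peaks, the nearest p300 summit was a median of 21 bp (20 to 21) from the Gsc summit over 6587 peaks with p300, and the nearest TLE summit 22 bp (21 to 23) over 5090 peaks with TLE. At unshared peaks the p300 distance was 33 bp (32 to 35) and the TLE distance 20 bp (20 to 21). The p300 summit thus lay nearer to Gsc at shared peaks, while the distance to TLE was within 2 bp in both. Distances to midpoints of the broad lists were larger, with 62 bp (59.5 to 64) to Lim1 and 71.5 bp (69.5 to 73.5) to Otx2 at shared peaks, and a midpoint is a coarser point than a summit. At unshared peaks the Otx2 midpoint was nearer, at 48 bp (46.5 to 50). Every deposited TLE and p300 summit was used. Neither the summit nor the midpoint distances were held to peak width, and the midpoint distances are not a like measure to the p300 summit distances.

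Shared sites lay close together along the chromosomes. Of the shared Gsc peaks, 55.8% (54.7 to 56.9) had another shared Gsc peak within 10 kb, 73.7% within 50 kb and 82.4% within 100 kb. The mean number of other shared peaks was 1.64, 3.93 and 5.87. Around unshared Gsc peaks, a shared one was found within these distances for 15.7, 40.1 and 56.2%. The median distance to the nearest peak of the same class was 5503 bp (4765 to 6232) for shared and 34590 bp (33072 to 36037) for unshared Gsc peaks. Neighbours within 1 kb made up much of this value. With Gsc and Lim1 peaks merged across gaps under 500 bp, 31.8% of shared peaks had another within 10 kb, and with neighbours under 1 kb not counted 35.3%. With the Gsc list at a −log10 q of at least 10 it was 34.4% of 1280 shared peaks. That setting thins the list and does not single out close neighbours.

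The make-up of the neighbourhood was then taken as the shared part of the neighbouring Gsc peaks. Within 10 kb of a shared Gsc peak, 82.3% of the other Gsc peaks were shared, and within 10 kb of an unshared one 49.0% were, beside 43.6% in the whole list. In successive rings around shared peaks the share was 89.9% at less than 1 kb, 76.9% at 1 to 10 kb, 71.3% at 10 to 50 kb and 66.7% at 50 to 100 kb. Around unshared peaks it was 46.5, 49.8, 46.7 and 45.7%. Gsc peaks on the same Lim1 peak are all shared by definition, and 976 Lim1 peaks held 2 or more Gsc peaks. Such neighbours were not left out of the ring shares, so part of the value at less than 1 kb is fixed by the definition. Merged peaks gave 66.5 and 44.3% within 10 kb. Leaving out the 1% of windows of 100 kb densest in Lim1 midpoints (127 of 12731) gave 79.1 and 46.5%. These windows were not chosen by their number of Gsc or shared peaks. Pooled over all pairs of neighbours, most Gsc neighbours of shared peaks were thus shared in each ring out to 100 kb. Dense groups add many pairs to such shares. At 50 to 100 kb, 51.0% of shared Gsc peaks had any shared neighbour, while single peaks had up to 44. The merged peaks and the windows left out were examined within 10 kb only, so the weight of a few dense regions farther out was not tested. No setting left out the regions densest in Gsc peaks.

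Lim1 peaks showed the same order at a lower level. Of Lim1 neighbours less than 1 kb from a shared Lim1 peak, 42.6% were shared, then 26.1% at 1 to 10 kb, 16.7% at 10 to 50 kb and 13.6% at 50 to 100 kb, beside 7.78% in the whole list. Around unshared Lim1 peaks the share stayed between 8.51 and 9.05%. Lim1 peaks other than the overlapping ones were also denser around shared Gsc peaks, with a mean of 2.56 within 10 kb against 1.73 around unshared ones, and 19.6 against 14.7 within 100 kb.

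**Figure D5:**
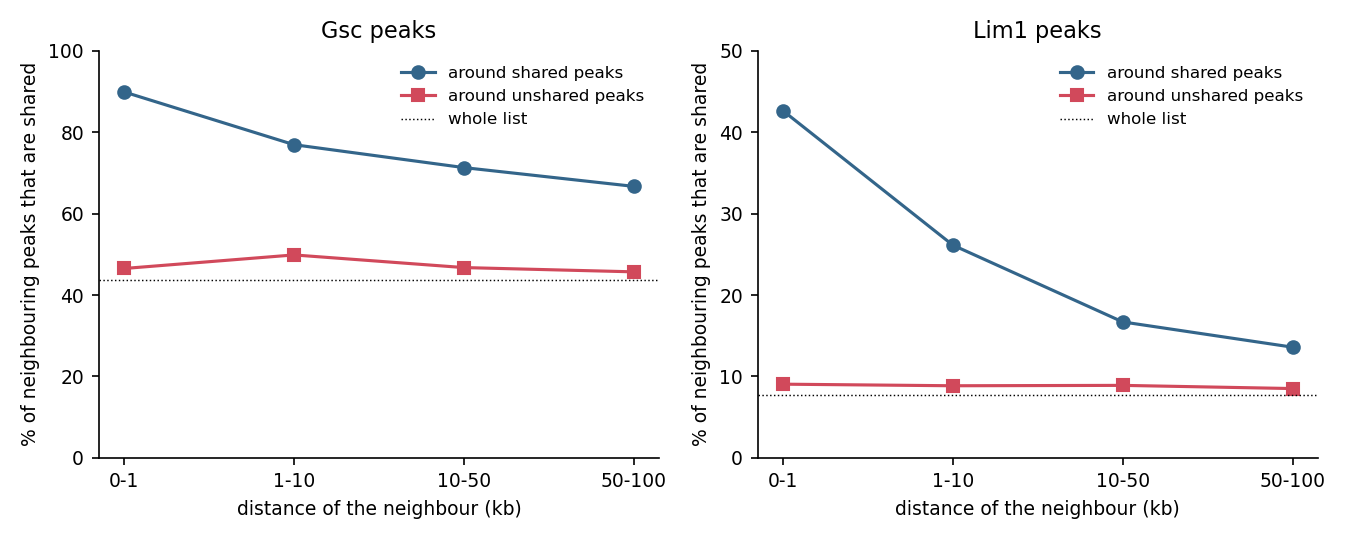
Percent of neighbouring Gsc peaks (left) and Lim1 peaks (right) that are shared, by distance of the neighbour (x axis, kb), around shared and around unshared peaks. The dotted lines are the shares in the whole lists, 43.6 and 7.78%, and the y axes differ in range; around shared Gsc peaks the value falls from 89.9 to 66.7%, around unshared ones it stays between 45.7 and 49.8%.

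Chained at gaps of at most 10 kb, the 7713 shared Gsc peaks formed 4817 groups. Single peaks made up 3410 groups and 44.2% of shared peaks, pairs 791 groups, and the 22 groups of 10 or more held 336 peaks, 4.36%. The share with H3K27ac was higher in larger groups, from 41.7% of single peaks to 55.2% in pairs, 62.1% in groups of 3 to 4, 71.2% in groups of 5 to 9 and 81.8% in the largest. H3K4me1 went from 47.2 to 87.8%. TLE stood at 63.5, 64.5, 65.95, 71.8 and 81.8%, and p300 at 82.6, 86.3, 86.9, 89.4 and 92.3%. In percentage points, the marks were thus more graded with group size than the coregulators. The p300 share had less room to rise, since it was already 82.6% in single peaks. The last class rests on 22 groups, and these shares count peaks.

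The 2 largest groups lay on chromosome 8. One spanned 97877114 to 97913558 (36.4 kb) with 32 shared Gsc peaks over 13 Lim1 peaks. Each of the 32 met peaks of all 5 other lists, beside 26.6% of all shared Gsc peaks. The second spanned 97780672 to 97839814 (59.1 kb) with 27 shared peaks over 14 Lim1 peaks. The next lay on chromosome 5 at 35918730 to 35948134 and on chromosome 10 at 20064115 to 20081375, with 22 shared peaks each, and on chromosome 2 at 102068459 to 102084885, with 19. In the second group, 25 of the 27 shared peaks met TLE and 26 met H3K27ac. These counts were 12 and 17 of 22 on chromosome 5, 16 and 11 of 22 on chromosome 10, and 17 and 15 of 19 on chromosome 2. Median Gsc folds were 4.47 and 5.51 in the chromosome 8 groups, 4.36 on chromosome 5, and 2.17 and 1.88 on chromosomes 10 and 2, against 5.23 over all shared Gsc peaks. In 4 of these 5 groups the median Gsc fold was below that of the whole list, 4.88. The widest Lim1 peaks that held a Gsc summit were 3294, 2216 and 2204 bp long. The first, on chromosome 4 at 72497500 to 72500793, had a Lim1 fold of 2.93 and met 9 Gsc peaks with a highest fold of 3.81. The others lay on chromosome 8 at 97911398 to 97913613, at the upper end of the largest group, and on chromosome 4 at 49135766 to 49137969. They met 7 and 3 Gsc peaks.

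Sharing was similar on most chromosomes and higher on the shortest. On chromosomes 1 to 8 it lay between 35.8 and 44.3% of Gsc peaks, with the lowest value on chromosome 3. It was 51.4% (48.5 to 54.2) on chromosome 9 and 63.9% (60.6 to 67.0) on chromosome 10. Chromosome 10 also had the highest density of Gsc peaks, 22.9 per Mb against 12.8 to 15.5 on chromosomes 1 to 9, and of Lim1 peaks, 87.8 per Mb against 58.9 to 70.1. There 47.2% of Gsc peaks met H3K27ac and 57.8% TLE, against 23.3 to 40.1% and 61.2 to 67.1% on the others. Without chromosome 10 the Gsc share was 42.5%. The part of peak density in the higher share was not tested.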

How the data were processed

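Peaks of 7 ChIP-seq libraries were analysed, with Gsc and Lim1 as the subject and the other 5 for comparison. The 4 inputs were not used here. The tools listed, per the submitters' processing notes, are MACS2 and deepTools, with no version. Aligner, build and read filters were not given in the sources used here. Each line holds, as deposited, a fold enrichment (a ratio over local background), a −log10 p, a −log10 q and a score as deposited by the authors. The score is 10 times the −log10 q without decimals (largest difference 1). The narrow lists also give the summit, as the authors deposited it. Sequences whose names begin with Chr were kept, 1 row per distinct interval. Coordinates are printed from 1. The gene table at hand uses another assembly, in which the last gene lies 10.6 to 29.6 Mb past the last peak, so no names or sequences were taken from it.

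Overlap means at least 1 bp. Shares have exact Clopper-Pearson 95% intervals and medians have order-statistic 95% intervals. Neighbours were counted within 10, 50 and 100 kb. Quartiles are of each list's own width or fold, with ties kept together. Named regions are the 8 pairs with the highest lower fold percentile, the 3 strongest Gsc and the 3 strongest Lim1 peaks without the other within 10 kb, the 3 widest Lim1 peaks with a Gsc summit, and the 5 groups with most shared Gsc peaks. The comparison and its lists were chosen with earlier results of these data known. The procedure for the 7 main values was tested on a simulated chromosome. There all 7 of the 7 matched the planted value or a direct count. The other values were not part of that test. Python 3.11.15, numpy 2.4.6, pandas 2.3.3, scipy 1.17.1 and matplotlib 3.10.9 were used.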

Additional observations from a re-analysis of the deposited data

Results flagged for a closer look

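Data outside the chromosomes were left out of the comparison and showed a higher overlap. On unplaced sequences, 76.8% (75.9 to 77.6) of 8635 Gsc peaks met a Lim1 peak, against 43.6% on the chromosomes. On the mitochondrial genome, 100% of the 12 Gsc peaks did (exact 95% interval 73.5 to 100), with a median Gsc fold of 2.05. The cause of these values was not tested.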

How the results depend on the processing

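No paired analysis was possible because Gsc and Lim1 were each profiled once. The 7 main values were recomputed under 13 settings, which gave 74 values. Of these, 18 stayed inside the counting interval of the reported value and 56 moved outside it. The moved values are given in the order Gsc share, Lim1 share, median distance of summit to midpoint, unshared Gsc summits within 1 kb of Lim1, shared Gsc width, shared Lim1 width and shared Gsc peaks with another within 10 kb. With at least 50% of the shorter peak covered they were 40.0%, 7.14%, 57.5 bp, 28.3% and (Lim1 width) 210 bp. With the Gsc summit inside the Lim1 peak they were 38.5%, 6.81%, 56 bp, 30.1% and (Lim1 width) 220 bp. With edges at most 500 bp apart they were 53.7%, 10.8%, 121 bp, 7.18%, 87 bp and 166 bp. With both lists at a −log10 q of at least 3 they were 26.7%, 30.6%, 71.5 bp, 6.10%, 116 bp, 258 bp and 60.05%. With the Gsc list at a −log10 q of at least 10 they were 77.7%, 1.45%, 70.5 bp, 170.5 bp (Gsc width), 275 bp and 34.4%. With the shortened Lim1 list they were 24.7%, 19.3%, 65 bp, 8.61%, 100 bp and 224 bp. With peaks under 500 bp apart merged they were 39.5%, 72.5 bp, 19.7%, 113 bp, 262 bp and 31.8%. With unplaced scaffolds they were 54.5%, 10.8%, 73.5 bp, 27.9%, 97 bp, 228 bp and 65.9%. Without the windows densest in Lim1 midpoints they were 41.5%, 7.39% and (neighbours) 52.4%. Without chromosome 10 they were 42.5% and 7.55%. With every Gsc summit the median distance was 69.5 bp. Neighbours were 35.3% beyond 1 kb and 41.8% outside the same Lim1 peak. The excess of TLE at shared over unshared Gsc peaks, 4.55 percentage points, turned to −3.73 with the Gsc list at a −log10 q of at least 10, to −10.2 in the widest quartile and to −10.7 in the widest and strongest peaks. For Otx2 the excess of 24.1 points shrank to 4.09, 3.57 and 0.39 in the same 3 settings, the last with overlapping intervals. For p300, H3K4me1 and H3K27ac it was between 19.3 and 52.5 points in them. The settings without chromosome 10, by width and fold, and on nearby neighbours were chosen after seeing the data.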
